A study of Mus musculus with 8 samples.

Results

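The genes of the proteasome, the protease that degrades ubiquitin-tagged proteins, were followed in liver RNA from mice with and without hepatic pyruvate carboxylase. Members were the protein-coding mouse genes of the GENCODE M21 annotation whose symbol begins with Psma to Psmg followed by a number, leaving out pseudogenes, and whose identifier was listed in the table of read counts. The rule used no measured value and found 50 genes among the 35275 identifiers of the table. They comprised 14 subunits of the constitutive 20S core (7 of the alpha and 7 of the beta ring), 3 immunoproteasome subunits, 9 subunits of the 19S base, 8 of the 19S lid, 7 assembly chaperones, 5 activator genes, 1 inhibitor, the germ cell form Psma8, the thymus form Psmb11, and Psmc3ip, a meiotic recombination factor that matches the pattern by name and is no subunit.

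Whole liver was taken from 4 WT and 4 Pcx L-/- mice, all male, C57BL/6, 9 weeks old and fasted for 24 h, with 1 RNA-seq library per mouse. The study's methods give the Pcx L-/- mice as carrying Pcx alleles with loxP sites around an exon, which Albumin-Cre removes in hepatocytes, so that the other liver cells keep the gene. The animals labelled WT are described there as Pcx f/f littermates, which carry the same floxed alleles without Cre. With no fed mice among them, the comparison gives the difference between the genotypes in fasted liver. It asks how the liver's RNA differs when pyruvate cannot be carboxylated in hepatocyte mitochondria.

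The proteasome is built from a barrel-shaped core with stacked rings, whose inner beta rings hold the proteolytic sites, and a regulatory particle that docks on the outer alpha rings. The base of that particle carries a ring of ATPases that unfold the substrate and feed it into the barrel, and the lid removes the ubiquitin chain. In cells exposed to interferon gamma, the catalytic beta subunits are exchanged for immunoproteasome forms that serve antigen presentation. When proteasome activity is short, the transcription factor NRF1, encoded by Nfe2l1, raises the subunit genes together through antioxidant response elements in their promoters.

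Library totals ran from 12016242 to 20023108 reads, and 13168 genes passed the filter on low counts. Pcx had levels of 204 to 313 in WT and 7.89 to 10.8 in Pcx L-/- livers, in FPKM, which divides reads by gene length and library size, here with library sizes scaled by TMM (TMM-scaled FPKM). A pair of libraries stood apart. In WT replicate 4, the shallowest, the deviation of a gene from its group mean correlated with log2 gene length across genes (r = 0.347), and in Pcx L-/- replicate 1 it did so with the opposite sign (r = -0.277), against -0.134 to 0.00664 in the other 6. The last was also the Pcx L-/- library most like the WT livers, with Spearman correlations across genes of 0.969 to 0.981 with them against 0.949 to 0.964 for the other Pcx L-/- libraries. Genes are not independent replicates, and these coefficients are descriptions. Pcx L-/- replicate 1 was also the only Pcx L-/- mouse of the lower animal numbers, a series it shared with WT replicates 1 and 2. WT replicates 3 and 4 and Pcx L-/- replicates 2 to 4 had the higher numbers, so series and genotype were unbalanced. The part of the series in the likeness of Pcx L-/- replicate 1 to the WT livers was not tested. Hepatocyte markers were present in every library, and 4 of the 9 tested (Apoa1, Apob, Serpina1a and Ttpa) were lower in Pcx L-/- livers, where 13.5% of all genes were. All 9 had log2 fold changes below 0, from -1.06 to -0.31 with a median of -0.63. Before adjustment, and in DESeq2, 6 of them were lower, and with library totals 3. Of the endothelial and the stellate cell markers, 0 of 8 each were called (before adjustment, 2 of the former were lower). Of 6 cholangiocyte markers 1, Sox9, was lower at a log2 fold change of -0.79 (adjusted p = 0.0226), all 6 values were below 0 with a median of -0.45, and the call was lost with library totals, with limma and without WT replicate 3 or Pcx L-/- replicate 2 or 3. Results that rest on these libraries are given with and without them.

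In Pcx L-/- liver, 10 of the 49 members tested were higher (20.4%) and 0 were lower at an adjusted p under 0.05 in edgeR's quasi-likelihood test, where 14.1% of all genes tested were higher and 13.5% lower. Before adjustment, 14 members passed p under 0.05 as higher and 4 as lower in edgeR. The share of all genes at an unadjusted p under 0.05 is not given here. Counts before adjustment, in this and the other paragraphs, therefore stand without a background. DESeq2 called 10 members higher, the same 10, and 1 lower (Psme4), and over all genes 1950 higher and 2010 lower. The 10 were the core assembly chaperones Psmg2, Psmg3 and Psmg4, the base assembly chaperone Psmd5, the base ATPases Psmc2 and Psmc5, the lid subunits Psmd8 and Psmd11, the activator Psme3 and the inhibitor Psmf1. The median log2 fold change of the 49 members was 0.14, against -0.01 over all genes tested, and 36 of the 49 were above 0. Levels in all 4 Pcx L-/- mice lay above all 4 WT mice for 13 members, where 15.1% of all genes did so, and below them for 1 member, Psme4, where 12.5% did.

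The calls depended on the scale. Over the genes tested, the log2 fold changes had a median near 0 with TMM scaling and one of 0.28 with scaling by library total alone. On that scale 32 of the 49 members were higher and 0 lower, beside 29.7% and 6.61% of all genes, and the members' median of 0.42 stood 0.14 above that of all genes, the same distance as under TMM. Psmg2, Psmg4, Psmd8, Psmc2 and Psme3 were called higher in each of the 18 alternative fits, including each fit without 1 mouse. The other 5 were lost in between 6 and 10 of them.

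**Figure D1:**
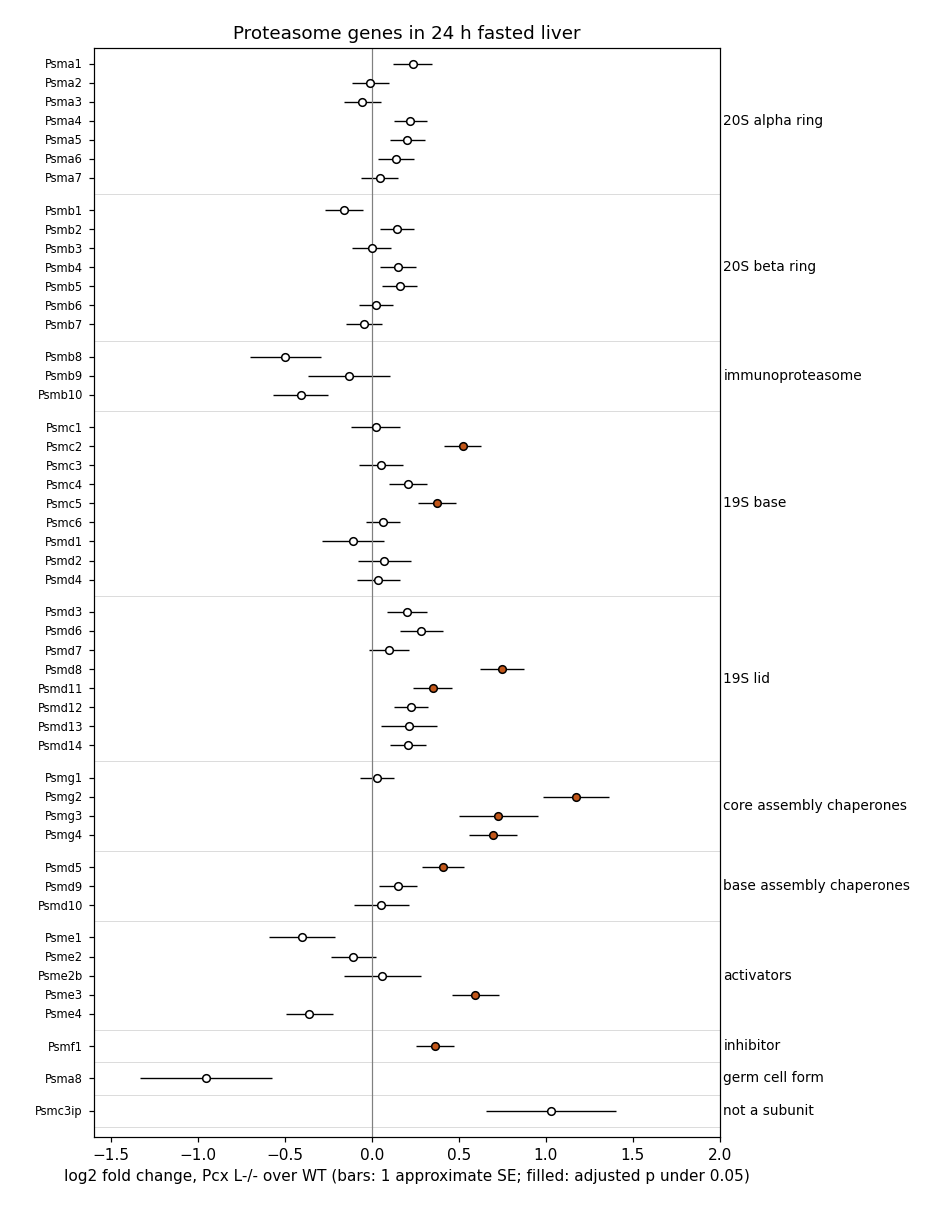
Log2 fold change (Pcx L-/- over WT) of the 49 members tested, grouped by role, from edgeR with TMM scaling. Points are estimates, bars are 1 approximate standard error, and filled points mark the 10 members with an adjusted p under 0.05. The filled points lie among the chaperones, the base, the lid, 1 activator and the inhibitor, and the 14 core subunits lie between -0.16 and 0.23.

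The chaperones that assemble the 20S core had the highest median log2 fold change of the roles with several members, 0.71. Psmg1 and Psmg2 encode the partners of a heterodimer, PAC1-PAC2, that scaffolds the alpha ring, and Psmg3 and Psmg4 those of a second, PAC3-PAC4. Of these 4 genes, 3 were higher and 1, Psmg1, was not called, where 14.1% of all genes tested were higher.

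Psmg2 (chromosome 18, bases 67641599 to 67654162, GRCm38) had levels of 11.6, 10.1, 10.9 and 7.55 TMM-scaled FPKM in WT replicates 1 to 4 and of 16.1, 27.2, 20.9 and 27.2 in Pcx L-/- replicates 1 to 4. All 4 Pcx L-/- mice were above all WT mice, with replicate 1 the lowest of them. The means were 10.1 ± 1.77 and 22.8 ± 5.41 (SD, n = 4), and the log2 fold change was 1.17 (SE 0.19, edgeR adjusted p = 0.00182), the highest of the members. Its partner Psmg1 had levels of 18.3, 17.3, 17.5 and 17.9 TMM-scaled FPKM in WT and 18.3, 18.1, 16.5 and 19.6 in Pcx L-/- livers. The genotypes overlapped throughout, and the log2 fold change of Psmg1 was 0.03 (SE 0.10, adjusted p = 0.86). The level of Psmg2 was therefore 0.42 to 0.63 times that of Psmg1 in the WT mice and 0.88, 1.5, 1.27 and 1.39 times in the Pcx L-/- mice, a per-mouse ratio that does not depend on library scaling.

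Psmg4 (chromosome 13, bases 34162964 to 34178173) had levels of 9.78, 12.6, 12.1 and 12.3 TMM-scaled FPKM in WT and 17.1, 18.2, 20.4 and 19.8 in Pcx L-/- livers. The genotypes did not overlap, and the log2 fold change was 0.70 (SE 0.14, adjusted p = 0.00491). Its partner Psmg3 was much less abundant, at 2.06, 1.44, 1.77 and 1.29 TMM-scaled FPKM in WT and 2.57, 3.26, 1.85 and 3.29 in Pcx L-/- livers. Pcx L-/- replicate 3 lay within the WT range for Psmg3. For Psmg3 the log2 fold change was 0.73 (SE 0.23, adjusted p = 0.0334), from 31 to 174 reads per library, and it shares 280 exon bases with Gm26938 on the same strand, which was at 0 reads. Its adjusted p ran up to 0.105 when single mice were left out. Psmg3 lost its call without WT replicate 2, 3 or 4 and without Pcx L-/- replicate 2 or 4. The ratio of Psmg3 to Psmg4 averaged 0.144 ± 0.0475 in WT and 0.147 ± 0.0391 in Pcx L-/- livers (SD, n = 4).

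Pomp, the maturation factor that works on the beta rings and falls outside the symbol rule, had a log2 fold change of 0.04 (SE 0.11, adjusted p = 0.807).

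Of the 3 genes for chaperones of the base, Psmd5, which holds ATPase Psmc2 with its neighbours before the base forms, was called. Its level was 8.31, 9.92, 9.15 and 7.9 TMM-scaled FPKM in WT and 10.2, 12.6, 10.7 and 13.4 in Pcx L-/- livers. The lowest Pcx L-/- mouse was just above the highest WT mouse. Psmd5 had a log2 fold change of 0.41 (SE 0.12, adjusted p = 0.027), with adjusted p up to 0.0932 when 1 mouse was left out. The call was lost without WT replicate 1, 3 or 4, without Pcx L-/- replicate 2 or 4 and with the replicate number as a block. Psmd9 (p27) and Psmd10 (gankyrin), the other base chaperones, had log2 fold changes of 0.15 (adjusted p = 0.336) and 0.05 (adjusted p = 0.833).

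**Figure D2:**
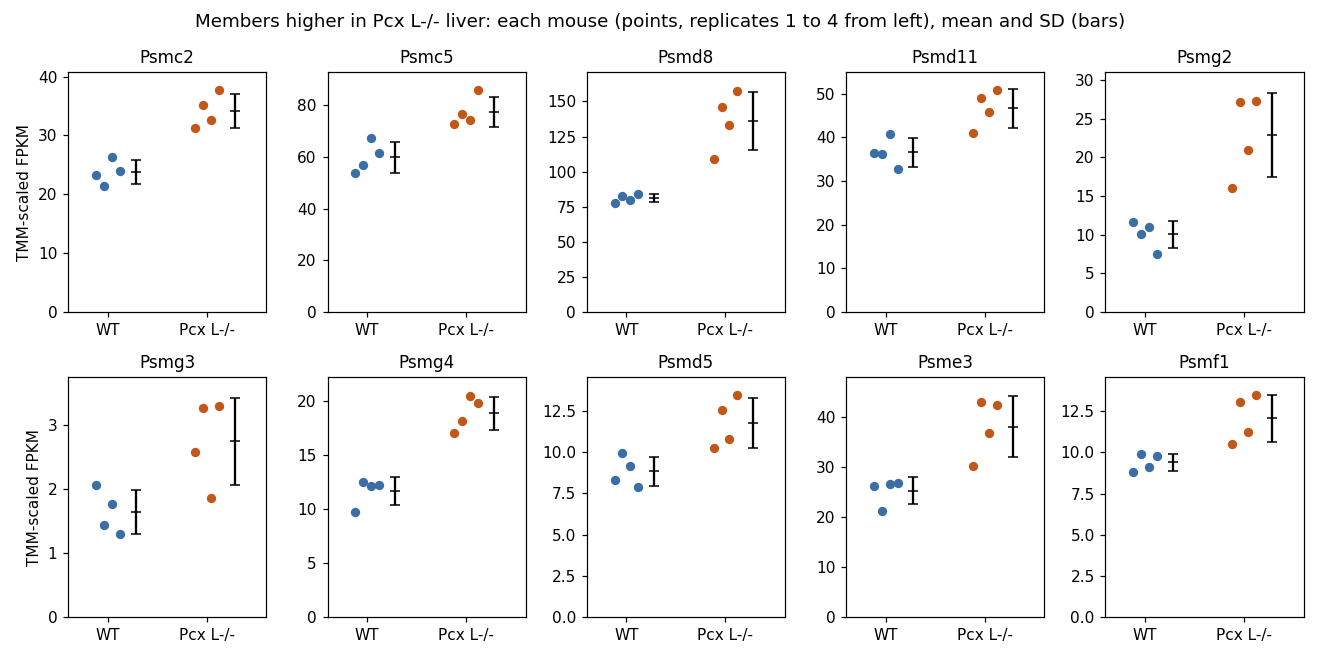
Levels (TMM-scaled FPKM, axes from 0) of the 10 members called higher, with 1 point per mouse, replicates 1 to 4 from left, and the mean and SD of 4 mice beside them. Blue is WT and orange Pcx L-/-, and the groups are separate in every panel but that of Psmg3.

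The 20S core itself had no called member. Of its 14 subunits, 0 were higher and 0 lower in edgeR and in DESeq2, and 1 (Psma1) was higher in edgeR before adjustment. Over all genes tested, edgeR called 14.1% higher and 13.5% lower. Limma on log2(FPKM + 1), which uses library totals, called 9 core subunits higher, beside 3822 of all 13168 genes. The median log2 fold change was 0.14 in the alpha ring and 0.02 in the beta ring. Psma1, an alpha ring subunit, had the highest value of the core at 0.23 (SE 0.11, adjusted p = 0.145), and Psmb1, a beta ring subunit without a proteolytic site, had the lowest at -0.16 (SE 0.11, adjusted p = 0.298). Psma4 and Psmb5 were the 2 of 14 core members whose 4 Pcx L-/- levels all lay above the WT levels, where 15.1% of all genes tested did so. Psma4, an alpha ring subunit, ranged from 71.7 to 80.7 TMM-scaled FPKM in WT and from 86 to 96.8 in Pcx L-/- livers, with a log2 fold change of 0.22 (adjusted p = 0.113). Psmb5, the subunit with chymotrypsin-like activity and the target of bortezomib, ranged from 123 to 135 TMM-scaled FPKM in WT and from 136 to 161 in Pcx L-/- livers, with a log2 fold change of 0.16 (adjusted p = 0.273). Psmb7, the subunit with trypsin-like activity, had a log2 fold change of -0.04 and shares 405 exon bases with Nek6 on the opposite strand. With scaling by library total, 9 of the 14 core subunits were called higher, among them Psma1, Psma4 and Psmb5, beside 29.7% of all genes.

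The geometric mean level of the 14 core subunits was 80.7, 83.5, 83.8 and 77.3 TMM-scaled FPKM in the WT mice and 91.3, 80.7, 80.5 and 90.3 in the Pcx L-/- mice. The genotypes overlapped, with means of 81.3 ± 3.04 and 85.7 ± 5.93 (SD, n = 4). The subunits stand in equal numbers in the assembled barrel, but their levels per length differed 3.12-fold in WT, from 41.7 TMM-scaled FPKM for Psma3 to 130.0 for Psmb5, and 3.62-fold in Pcx L-/- livers between the same genes. The coefficient of variation of the mean level over the 14 subunits was 36.6% in WT and 36.1% in Pcx L-/- livers.

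**Figure D3:**
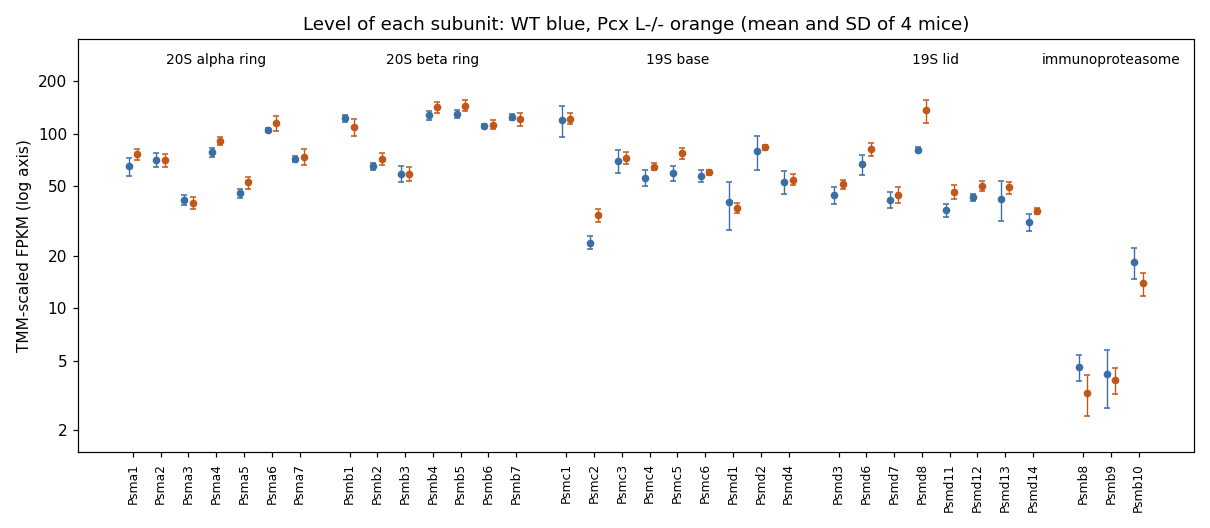
Mean level (TMM-scaled FPKM, log axis) of each core, base, lid and immunoproteasome subunit in WT (blue) and Pcx L-/- liver (orange), with the SD of 4 mice. Core subunits lie between 40.2 and 145, Psmc2 is the lowest of the constitutive subunits in both genotypes, and Psmd8 goes from 81.2 to 136.

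In the 19S base, 2 of 9 subunits were higher, both of them ATPases, and 0 were lower, also before adjustment. After adjustment, 14.1% of all genes tested were higher and 13.5% lower. DESeq2 called the same number in the base, and 1950 genes higher in all. It was given the 21737 genes with at least 1 read, some of which its own low-count filter can leave without an adjusted p. Scaling by library total and limma on log2(FPKM + 1) each called 7 base subunits higher and 0 lower. Of all 13168 genes, these fits called 3915 and 3822 higher. Psmc2 (Rpt1; chromosome 5, bases 21785283 to 21803787) had levels of 23.4, 21.5, 26.4 and 24.0 TMM-scaled FPKM in WT and 31.2, 35.1, 32.6 and 37.7 in Pcx L-/- livers. The genotypes were well separated. In the fit, Psmc2 had a log2 fold change of 0.52 (SE 0.11, adjusted p = 0.00589), and adjusted p reached 0.0262 at most in the 18 alternatives. Psmc2 was the least abundant of the 31 constitutive core, base and lid subunits in both genotypes.

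Psmc5 (Rpt6) had levels of 53.6, 56.9, 67.1 and 61.3 TMM-scaled FPKM in WT and 72.7, 76.4, 74.1 and 85.9 in Pcx L-/- livers. The genotypes did not overlap, and the log2 fold change was 0.37 (SE 0.11, adjusted p = 0.0268). Psmc5 lost its call in 7 of the 18 alternatives, with adjusted p up to 0.115. It did so without WT replicate 1 or 2 and without Pcx L-/- replicate 2, 3 or 4 (adjusted p up to 0.0952). The others were the fit with the replicate number as a block and that with only the 5 mice of higher animal numbers. The other 4 ATPases, Psmc1, Psmc3, Psmc4 and Psmc6, had log2 fold changes of 0.02, 0.05, 0.21 and 0.06. The scaffold subunits Psmd1 and Psmd2 and the ubiquitin receptor Psmd4 had -0.11, 0.07 and 0.04, and none of these 3 passed at an unadjusted p under 0.05. WT replicate 4 held the highest WT level of 5 base subunits, Psmc1 at 156 TMM-scaled FPKM, Psmc3 at 84.7, Psmd1 at 59.0, Psmd2 at 105 and Psmd4 at 61.4. Without that mouse the log2 fold changes of Psmc1 and Psmd1 were 0.17 and 0.13, and neither was called. Adrm1, another ubiquitin receptor, whose symbol is outside the rule, had a log2 fold change of 0.16 (adjusted p = 0.371).

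In the 19S lid, 2 of 8 subunits were higher and 0 lower, where 14.1% of all genes tested were higher and 13.5% lower. Before adjustment 4 lid subunits were higher and 0 lower. With scaling by library total, and with limma on log2(FPKM + 1), all 8 were called higher. Those fits called 3915 and 3822 of all 13168 genes higher. All 8 had log2 fold changes above 0, between 0.10 and 0.75 with a median of 0.22, where the median of all genes was -0.01. Psmd8 (Rpn12; chromosome 7, bases 29174188 to 29180701), the subunit whose arrival completes the lid before it joins the base, had levels of 77.7, 82.7, 80.2 and 84.1 TMM-scaled FPKM in WT and 109, 146, 133 and 157 in Pcx L-/- livers. The WT mice kept within a narrow band, and each Pcx L-/- mouse was above it, replicate 1 by the least. For Psmd8 the log2 fold change was 0.75 (SE 0.13, adjusted p = 0.0024), and adjusted p reached 0.0116 at most in the alternatives. Set against the geometric mean of the core in the same mouse, Psmd8 stood at a log2 difference of -0.06, -0.01, -0.06 and 0.12 in WT and 0.26, 0.85, 0.73 and 0.80 in Pcx L-/- livers.

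Psmd11 (Rpn6), a lid scaffold that touches the core, had levels of 36.4, 36.3, 40.8 and 32.8 TMM-scaled FPKM in WT and 40.9, 48.9, 45.7 and 50.9 in Pcx L-/- livers. Pcx L-/- replicate 1 and WT replicate 3 nearly met. The log2 fold change of Psmd11 was 0.35 (SE 0.11, adjusted p = 0.0404), and this call was the least stable, lost in 10 of the 18 alternatives, with adjusted p up to 0.128. Among those were the fits without WT replicate 1, 2 or 4, without Pcx L-/- replicate 2, 3 or 4, with the series of mouse numbers as a covariate, without the filter, and with only the 5 mice of higher animal numbers.

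Among the lid subunits not called, Psmd6 and Psmd12 had log2 fold changes of 0.28 (adjusted p = 0.104) and 0.22 (adjusted p = 0.109). Psmd14, the deubiquitinase of the lid, had 0.21 (adjusted p = 0.158). Psmd3, Psmd7 and Psmd13 had 0.20, 0.10 and 0.22. Without WT replicate 4, Psmd6, Psmd13 and Psmd14 were called higher, at log2 fold changes of 0.37, 0.41 and 0.28, while with only the 5 mice of higher animal numbers Psmd13 stood at -0.02. Psmd13 shares 342 exon bases with Sirt3 on the opposite strand, and the sources used here do not say whether the counting used strand, so that its value is uncertain. Sem1, the small lid subunit whose symbol is outside the rule, had a log2 fold change of 0.20 (adjusted p = 0.387).

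The geometric mean level of the lid, relative to that of the core in the same mouse, was -0.88, -0.98, -0.82 and -0.59 on the log2 scale in WT and -0.76, -0.50, -0.59 and -0.55 in Pcx L-/- livers. WT replicate 4 and Pcx L-/- replicate 1 each lay among the other genotype's values, and the other 6 mice did not overlap. The mean of the lid relative to the core was 0.22 higher in Pcx L-/- livers, and that of the base relative to the core 0.08 higher. These differences between parts of the complex were not tested.

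The 3 immunoproteasome subunits were present at low levels, and 0 of them were called in edgeR, DESeq2 or limma. Before adjustment, 2 of them were lower in edgeR. Psmb8, Psmb9 and Psmb10 replace Psmb5, Psmb6 and Psmb7, and each was compared with the subunit it replaces within a mouse, so that library scaling cancels. As the test, an exact two-sided permutation test on the log2 ratio was used, whose smallest p with 4 mice against 4 is 0.0286, adjusted over the 3 ratios.

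Psmb8 stood at 3.38%, 4.71%, 3.26% and 2.94% of the level of Psmb5 in WT and at 3.03%, 1.62%, 2.5% and 1.93% in Pcx L-/- livers. Pcx L-/- replicate 1 was just above WT replicate 4, and the other Pcx L-/- mice were below all WT mice. The log2 ratio was lower by a mean difference of -0.67 in Pcx L-/- livers, with exact p = 0.0571 and 0.171 after adjustment. Psmb10 stood at 15.7%, 18.3%, 13.7% and 11.4% of the level of Psmb7 in WT and at 12.9%, 11.1%, 12.1% and 9.87% in Pcx L-/- livers, with overlap. The difference of its log2 ratio was -0.35 (exact p = 0.114, adjusted 0.171). Psmb9 stood at 4.56%, 5.36%, 2.96% and 2.33% of the level of Psmb6 in WT and at 3.92%, 3.01%, 3.7% and 3.1% in Pcx L-/- livers, inside the WT range. The difference of that log2 ratio was -0.08 (exact p = 0.8, also 0.8 adjusted).

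**Figure D4:**
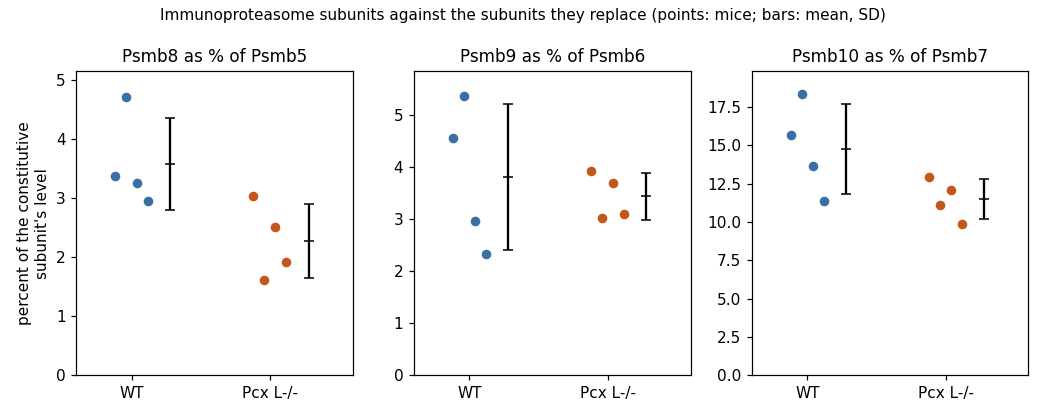
Level of each immunoproteasome subunit as a percent of the level of the constitutive subunit it replaces, with 1 point per mouse, replicates 1 to 4 from left, and the mean and SD of 4 mice. Blue is WT and orange Pcx L-/-, and the groups overlap in all 3 panels, by the least for Psmb8.

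Gene by gene, the log2 fold changes were -0.50 for Psmb8 (SE 0.21, adjusted p = 0.0964), -0.13 for Psmb9 (SE 0.24, adjusted p = 0.723) and -0.41 for Psmb10 (SE 0.16, adjusted p = 0.0775). That of Psmb9 turned to 0.13 on the scale of library totals, and Psmb9 shares 212 exon bases with Tap1 on the opposite strand. Without Pcx L-/- replicate 1, Psmb8 and Psmb10 were called lower, at -0.67 (adjusted p = 0.0215) and -0.52 (adjusted p = 0.0241), and without WT replicate 4 Psmb10 was called lower as well (adjusted p = 0.0205). In the fit without Pcx L-/- replicate 1, 11 members were higher, Psmc3ip being added, and 4 lower, Psme1 and Psme4 besides Psmb8 and Psmb10, where 16.7% of all genes were higher and 17.8% lower.

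Immunoproteasome genes are high in leukocytes, and in bulk tissue fewer cells of a type and less RNA per cell cannot be told apart. Of the 18 leukocyte markers, 15 were tested and 0 were called, also by DESeq2 and before adjustment (limma on FPKM called 1 higher), with a median log2 fold change of 0.10. Their summed normalized count ran from 1823 to 4095 in WT and from 2120 to 2778 in Pcx L-/- livers. Of 12 macrophage markers 1, Cd68, was higher, a call lost without WT replicate 3 or 4, without Pcx L-/- replicate 2, 3 or 4 and with the series of mouse numbers as a covariate (adjusted p up to 0.0917). The summed normalized count was 6592 to 9464 in WT and 7583 to 9631 in Pcx L-/- livers. The part of these cells in the values of Psmb8 and Psmb10 was not tested.

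The activators divided. Psme1 and Psme2 encode the PA28 alpha and beta chains, which are induced with the immunoproteasome, Psme3 the nuclear PA28 gamma ring, and Psme4 the large single-chain activator PA200. Psme3 (chromosome 11, bases 101316213 to 101323537) had levels of 26.2, 21.2, 26.6 and 26.9 TMM-scaled FPKM in WT and 30.1, 42.9, 36.7 and 42.4 in Pcx L-/- livers. All Pcx L-/- mice were above the WT mice. Psme3 had a log2 fold change of 0.59 (SE 0.14, adjusted p = 0.00909), and adjusted p reached 0.0356 at most in the alternatives.

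Psme4 had levels of 24.5, 23.4, 25.3 and 34.3 TMM-scaled FPKM in WT and 22.6, 20.03, 20.5 and 20.5 in Pcx L-/- livers. It was the one member with every Pcx L-/- mouse below every WT mouse, and WT replicate 4 was far above the rest. The log2 fold change of Psme4 was -0.36 (SE 0.14, adjusted p = 0.0691). It was called lower by DESeq2, without Pcx L-/- replicate 1 and with only the 5 mice of higher animal numbers.

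Psme1 and Psme2 had log2 fold changes of -0.40 (adjusted p = 0.141) and -0.11 (adjusted p = 0.576), and Psme1 was called lower without WT replicate 4 or without Pcx L-/- replicate 1. Psme2b, a near copy of Psme2 at 2.67 to 4.65 TMM-scaled FPKM over the 8 mice, had 0.06, and reads may have been split between the copies. Psmf1, which encodes PI31, a protein that binds the core and inhibits it in vitro, had levels of 8.79, 9.91, 9.11 and 9.76 TMM-scaled FPKM in WT and 10.48, 13.1, 11.2 and 13.5 in Pcx L-/- livers. The genotypes did not overlap, by a narrow margin. Psmf1 had a log2 fold change of 0.36 (SE 0.11, adjusted p = 0.0312), with adjusted p up to 0.106 in the alternatives. It lost its call without WT replicate 1 or 3, without Pcx L-/- replicate 2, 3 or 4 and with the replicate number as a block.

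Forms of other tissues were close to absent. Psmb11, made in thymic epithelium, had 0 reads in the 8 libraries together, which allows up to 0.0218 CPM (3 counts over the summed libraries, counting error only), and of 5 markers of that epithelium Foxn1, Aire and Krt5 were also at 0, Prss16 had 3 reads in all and Ccl25 44 to 132 reads per library. Psma8, the alpha subunit of the spermatoproteasome, had 7 to 21 reads per library and a log2 fold change of -0.96 (SE 0.38, adjusted p = 0.0834), and was called lower without Pcx L-/- replicate 3 (-1.31, adjusted p = 0.0439). Of 6 germ cell markers, Prm1, Prm2 and Tnp1 were at 0, Dazl had 3 reads in all, Sycp3 2 to 17 reads per library, and Ddx4 0 reads in each WT and 4 to 8 in each Pcx L-/- library. The part of such cells in the values of Psma8 was not tested. Psmc3ip had 2 to 31 reads per library and a log2 fold change of 1.03 (SE 0.37, adjusted p = 0.0622), and shares 385 exon bases with Mlx on the opposite strand.

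Because NRF1 acts on subunit genes through their promoters, the 250 bases before the start were searched on both strands for the core of the antioxidant response element, TGACNNNGC, and for an amino acid response element, TGATGNAA, which ATF4 and its partners bind. RefSeq promoter entries (GRCm38.p6) matched 42 of the 50 members. The antioxidant element was found in 5 of the 42 (11.9%), Psmb5, Psmb6, Psmc6, Psmd9 and Psmd12, and in 10.2% of the 32851 promoters of the same length. The amino acid element was found in 1 member, Psmd13, and in 3.45% of all promoters. Of the 9 called members with an entry, 0 held either element within the window, which says only that these letters are not there. The called member without an entry was Psmg2, so its promoter was not searched. For Psmc5, the bases after the start of the entry were not found in a GENCODE transcript. The promoters of 2 catalytic core subunits with the antioxidant element near the start, and of Psmd8, the called subunit with the highest level, are printed 5' to 3' on the gene's strand, with the antioxidant element in capitals. Psmb5 lies on the minus strand (chr14:54617996-54618245) with the match 47 to 39 bases before its start, Psmb6 on the plus strand (chr11:70525107-70525356) with the match 9 to 1 bases before it, and Psmd8 on the minus strand (chr7:29180674-29180923) with no match.
Psmb5: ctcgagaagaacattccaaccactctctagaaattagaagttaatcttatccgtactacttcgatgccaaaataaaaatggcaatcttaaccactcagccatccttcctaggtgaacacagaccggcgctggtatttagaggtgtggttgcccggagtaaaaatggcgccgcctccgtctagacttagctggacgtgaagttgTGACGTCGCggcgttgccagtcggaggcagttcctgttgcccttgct
Psmb6: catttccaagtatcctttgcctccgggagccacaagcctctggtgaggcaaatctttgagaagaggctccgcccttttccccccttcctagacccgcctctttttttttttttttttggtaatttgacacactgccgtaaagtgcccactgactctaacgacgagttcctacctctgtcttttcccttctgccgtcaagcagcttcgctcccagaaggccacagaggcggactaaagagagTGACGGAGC
Psmd8: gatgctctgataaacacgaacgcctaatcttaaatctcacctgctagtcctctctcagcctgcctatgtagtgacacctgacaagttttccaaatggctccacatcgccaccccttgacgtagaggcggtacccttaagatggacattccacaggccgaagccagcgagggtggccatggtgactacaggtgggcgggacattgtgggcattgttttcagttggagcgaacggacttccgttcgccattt
The 5 members with the antioxidant element, Psmb5, Psmb6, Psmc6, Psmd9 and Psmd12, had log2 fold changes of 0.16, 0.02, 0.06, 0.15 and 0.22. Psmd8, printed because it was called, had 0.75. Members with an entry but without the element that were not called include Psmd6 at 0.28, Psma1 at 0.23, Psmc1 at 0.02 and Psmd1 at -0.11. They thus lay on both sides of the values of the 5. The part of the element in these values was not tested.

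Genes that work with the proteasome were taken from 5 lists. Of 12 tested factors that bind or assemble it, 2 were higher and 0 lower, with a median log2 fold change of 0.16, where 14.1% of all genes tested were higher and 13.5% lower. Zfand2a, which encodes the stress-induced adaptor AIRAP, had levels of 5.25, 5.2, 5.43 and 4.73 TMM-scaled FPKM in WT and 6.21, 15.3, 10.1 and 11.8 in Pcx L-/- livers (log2 fold change 1.07, SE 0.22, adjusted p = 0.00564). Each Pcx L-/- mouse was above the WT mice, and replicate 1 only just. Usp14, a deubiquitinase of the 19S particle, had a log2 fold change of 0.35 (SE 0.10, adjusted p = 0.0276). The call of Usp14 was lost in 7 of the 18 alternatives (adjusted p up to 0.102). It was lost without WT replicate 1 or 2 and without Pcx L-/- replicate 2, 3 or 4. The others were the replicate number as a block and only the 5 mice of higher animal numbers.

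Of 10 tested genes for NRF1 and its processing, 2 were higher and 0 lower (14.1% and 13.5% of all genes), with a median log2 fold change of 0.04. Nfe2l1 had levels of 31.8, 28.1, 34.8 and 40.4 TMM-scaled FPKM in WT and 41.5, 46.1, 46.7 and 46.1 in Pcx L-/- livers. WT replicate 4 nearly reached the lowest Pcx L-/- mouse. The log2 fold change of Nfe2l1 was 0.42 (SE 0.13, adjusted p = 0.0322), and the call was lost in 8 of 18 alternatives, among them the fits without WT replicate 1, 2 or 3 and without Pcx L-/- replicate 2, 3 or 4. Mafk, a small Maf partner of such factors, had 0.69 (SE 0.18, adjusted p = 0.0178), lost without WT replicate 1 or 3 and without Pcx L-/- replicate 2 or 4.

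Of 13 genes for ubiquitin and its activation, 2 were higher and 1 lower (14.1% and 13.5% of all genes), with a median log2 fold change of 0.20. With scaling by library total 6 were higher and 0 lower, beside 29.7% and 6.61% of all genes. Rps27a, which encodes ubiquitin fused to a ribosomal protein, was higher at 0.72 (SE 0.13, adjusted p = 0.00373), the conjugating enzyme Cdc34 was higher at 0.46 (adjusted p = 0.0151), and Ube2r2, its close relative, was lower at -0.42 (adjusted p = 0.0214). Cdc34 lost its call in 4 of the 18 alternatives (without WT replicate 1, without Pcx L-/- replicate 2 or 4, and with only the 5 mice of higher animal numbers), and Ube2r2 in 6 (library totals, both limma fits, and without Pcx L-/- replicate 2, 3 or 4). Of 12 tested shuttle factors and partners of the p97 segregase, 4 were higher and 0 lower (14.1% and 13.5% of all genes), with a median log2 fold change of 0.26. With scaling by library total 10 were higher, beside 29.7% of all genes. The 4 called with TMM were Nsfl1c, Faf1, Ubxn1 and Rad23b, at log2 fold changes of 0.32, 0.45, 0.34 and 0.33 and adjusted p of 0.0327, 0.0398, 0.0444 and 0.0464. None of these calls was stable. Nsfl1c was lost in 8 of the 18 alternatives, Faf1 in 7, and Ubxn1 and Rad23b in 11 each, the last pair also with DESeq2 size factors. All 4 were lost without WT replicate 1 or 2 and without Pcx L-/- replicate 2, 3 or 4, and Faf1, Ubxn1 and Rad23b also without WT replicate 3.

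Of 17 genes for antigen presentation on MHC class I and the response to interferon gamma, 0 were higher in edgeR and 2 lower (14.1% and 13.5% of all genes), with a median log2 fold change of -0.14. Before adjustment 1 was higher and 3 lower, and DESeq2 called 1 higher and 2 lower. Nlrc5, the transactivator of MHC class I genes, had levels of 6.49, 6.36, 6.8 and 6.19 TMM-scaled FPKM in WT and 4.49, 2.36, 2.28 and 2.18 in Pcx L-/- livers. Every Pcx L-/- mouse was below the WT mice, replicate 1 by the least. The log2 fold change of Nlrc5 was -1.20 (SE 0.21, adjusted p = 0.00278), and that of Erap1, the peptidase that trims peptides for MHC class I, -0.58 (SE 0.13, adjusted p = 0.0085), both called lower in all 18 alternatives. Tap1, a subunit of the peptide transporter, and the interferon-induced factor Irf1 had log2 fold changes of 0.23 and -0.26, with adjusted p of 0.215 and 0.547. Tap1 was called higher in 5 of the 18 alternatives. These were library totals, both limma fits, the fit without WT replicate 2 and that with only the 5 mice of higher animal numbers. With scaling by library total, 3 of the 17 genes were higher and 2 lower, beside 29.7% and 6.61% of all genes.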

How the data were processed

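Total RNA from flash-frozen liver was sequenced by a company, with 1 library for each of 8 mice. The authors deposited raw read counts per Ensembl gene and FPKM values. A check found that all 142384 FPKM values above 0 can be rebuilt from the counts, 1 length per gene and the library totals (relative tolerance 1e-06). The submitters' processing notes name STAR 2.5, HTSeq 0.6.1, DESeq2 and mm10. For the strand setting and the annotation release, the sources used here give nothing. No column of the authors' own comparisons was used.

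Symbols were taken from GENCODE M21, which held 34490 of the 35275 identifiers (97.8%). Counts were tested with edgeR 4.0.16 in R 4.3.3 (quasi-likelihood, TMM factors, genotype as the only term) on all genes kept by filterByExpr (minimum count 10, minimum total 15), with Benjamini-Hochberg adjustment over all 13168 and a threshold of 0.05. SEs are approximate, from the F statistic. Residual degrees of freedom were 6 and the biological coefficient of variation 0.181. Levels are the authors' lengths applied to counts over TMM-scaled library sizes. Totals of 12016242 to 20023108 reads limit genes with few reads.

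Alternatives were other scalings, no filter, DESeq2 1.42.0, limma 3.58.1 on log2(FPKM + 1) and log2(FPKM + 0.1), a replicate block, a covariate for the series of mouse numbers, each mouse left out and, chosen after seeing the data, the 5 mice of higher animal numbers only (2 WT and 3 Pcx L-/-). The steps were tested on simulated data.

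Members and lists were chosen with earlier results of these data known. Every member is accounted for. Values per mouse are given for called members and the 3 catalytic pairs, and from each list at most the 4 called genes with the smallest p, plus Nfe2l1, Pomp, Adrm1, Sem1, Tap1 and Irf1. The value of 1 further gene is not reported here. Values of other genes per mouse (Psmg1, Psme4, Zfand2a, Nlrc5) were chosen after their values were seen. The labels give separate mice, so p-values measure the spread between mice.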

Additional observations from a re-analysis of the deposited data

Results flagged for a closer look

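Of 104 groups of 4 mice tested with Dixon's criterion for 1 mouse far from the other 3, 8 were past it, where chance gives about 1 in 20, and 5 of the 8 were WT replicate 4. In that library Psmc1 stood at 156 TMM-scaled FPKM against 106 to 113 in the other WT mice, Psmd1 at 59.0 against 32.8 to 35.8, and Psme4 at 34.3 against 23.4 to 25.3. It was on the low side for Psma4, at 71.7 against 80.1 to 80.7, and for Psmb4, at 116 against 131 to 133. WT replicate 1 was low for Psma6, at 100 against 106 to 107, and for Psmg4, at 9.78 against 12.1 to 12.6. WT replicate 2 was low for Psme3, at 21.2 against 26.2 to 26.9. WT replicate 4 was also the library whose deviation from its group correlated with gene length at r = 0.347 across genes, and the part of this in the 5 values was not tested. Psmg4 and Psme3 remained called higher in each fit without 1 mouse.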

How the results depend on the processing

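The 10 members called higher became 32 with library totals alone and 33 with limma on log2(FPKM + 1) or log2(FPKM + 0.1), which use those totals, where the median over the genes tested moved to 0.28, 0.18 and 0.27 on the log2 scale. Of all 13168 genes, 3915, 3822 and 3779 were higher in those fits, against 1855 in the main fit. The members called higher also changed in number with the other settings. They numbered 12 with upper quartile factors, 10 with DESeq2 size factors, 9 without the filter and 9 with the series of mouse numbers as a covariate. Over all genes, 2078, 1787, 1848 and 1765 were higher in those fits, of 13168 tested (21737 without the filter). Leaving out 1 mouse gave 5 to 11 higher (5 without Pcx L-/- replicate 2 or 4, 6 without WT replicate 1) and 0 to 4 lower (4 without Pcx L-/- replicate 1, 2 without WT replicate 4, 1 without Pcx L-/- replicate 3). Calls over all genes moved as well. Without Pcx L-/- replicate 2 or 4, 1252 of 13270 and 1156 of 13399 genes were higher, and without WT replicate 1, 1401 of 13332. Without Pcx L-/- replicate 1, 2370 of 13330 genes were lower. Without WT replicate 4 the number lower was 1755 of 13518, and without Pcx L-/- replicate 3 it was 1097 of 13254. Members lower were 1 with DESeq2 and 1 with the 5 mice of higher animal numbers only. Over all genes, 2010 were lower with DESeq2 and 2129 of 13471 with those mice. With the replicate number as a replicate block, 5 members were higher, beside 1481 of all 13168 genes. Same-numbered mice did not deviate together (correlations 0.096, -0.127, -0.094 and -0.068), and the labels tie the numbers to nothing the animals share. The differences of the log2 ratios, for which 3 mice against 4 cannot give an exact p under 0.057, were left untested without single mice and ran from -0.83 to -0.52 for Psmb8 to Psmb5, from -0.29 to 0.11 for Psmb9 to Psmb6 and from -0.46 to -0.23 for Psmb10 to Psmb7. In the replicate block an exact sign-flip test gave p = 0.125, 0.875 and 0.125, with 0.125 the smallest possible. The cause of these changes was not tested. Members with few reads, such as Psma8 and Psmc3ip, are limited by depth.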
